A study of Mus musculus with 8 samples.

Results

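The genes described here encode enzymes and subunits that remodel chromatin, modify histones or methylate DNA. They were chosen by name, as the probes whose annotated symbol begins with Smarc, Hdac, Dnmt, Cbx, Kdm, Jmjd, Setd or Ezh, or with Chd followed by a digit, together with Suz12, Eed and Bmi1. This rule took 109 probes of 72 genes out of 25697 probes and 16593 named genes on the array, and is called the chromatin set below. Whole back skin of 8 C57BL6 mice at 10 weeks of age was compared, with 1 Illumina mouse bead array per mouse. The 4 KO mice carried floxed MED1 alleles (MED1 fl/fl) and Cre recombinase under the keratin 14 promoter, and the 4 control mice, labelled WT, carried the same floxed alleles without the Cre. Cre acts here in keratin 14 expressing keratinocytes, so skin cells outside the lineage of these keratinocytes keep Med1. The RNA was that of the whole skin. The study places KO skin of this line at this age in hair growth and control skin in hair rest, so genotype and hair cycle phase cannot be told apart in any comparison below.

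Chromatin remodelers of the SWI/SNF, ISWI and CHD families use ATP to slide or evict nucleosomes. Histone deacetylases (HDAC) and histone demethylases (KDM) remove acetyl and methyl groups from histones, SET domain proteins add methyl groups, and DNA methyltransferases (DNMT) methylate CpG sites. Polycomb proteins keep genes silent in 2 complexes, PRC2, which methylates histone H3, and PRC1, whose chromobox (Cbx) subunits bind that mark. In the epidermis, Polycomb proteins, histone deacetylases, Dnmt1 and SWI/SNF are known to hold progenitor cells apart from differentiated cells.

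The arrays detected 14593 to 15149 probes each, and across probes the correlation r was 0.991 to 0.993 within a genotype and 0.908 to 0.916 between genotypes. Med1, a subunit of Mediator, fell by 0.79 ± 0.14 on the log2 scale (brightest probe, SE, 4 mice per group, limma adjusted p = 0.000649), to 57.9% of the control level. A second, dimmer Med1 probe fell by 0.69 ± 0.18 (limma adjusted p = 0.00861), with overlapping groups. The dimmest tested probe changed by -0.23 ± 0.17 and did not pass (limma adjusted p = 0.252). Keratinocyte markers were present, with Krt14 at 15.05 to 15.19 in control and 15.16 to 15.26 in KO mice (log2 signal), but of 8 such genes 2 rose and 3 fell. Krt15, a keratin of the hair follicle bulge, fell by 1.68, Lor by 0.48 and Krt5 by 0.30, while Ivl rose by 0.57 and Trp63 by 0.31, and their summed signal was 144884 to 149053 in control and 121052 to 125345 in KO mice. The cell type and cell cycle markers of these libraries moved widely with genotype. All 16 tested proliferation genes were higher in KO skin, and their summed signal was 5845 to 5961 in control and 16783 to 17121 in KO mice. All 13 tested hair shaft and inner root sheath genes were higher, with summed signals of 414.5 to 2145 against 214581 to 219430, and 4 of them (Krt35, Krt72, Padi3 and Krtap6-2) were detected on no control array. All 18 skeletal muscle genes were lower, with sums of 403488 to 411244 in control and 180766 to 188091 in KO mice. Of 11 endothelial genes 10 were lower, with sums of 12977 to 13788 against 5600 to 6057, and all 12 dermal fibroblast genes were lower, with sums of 122385 to 129225 against 74158 to 81103. Of 8 macrophage genes 7 were lower and 1 was higher, and 7 of 8 melanocyte genes were higher. In whole skin, fewer cells of a type and less RNA per cell cannot be told apart, and the part of these shifts in the results below was not tested.

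Of the 72 genes, 63 had a probe detected well enough to be tested, which means a detection p below 0.05 on at least 4 arrays. The brightest tested probe stood for each gene, and a gene was called where the limma p, adjusted over all 15120 tested probes, was below 0.05. In KO skin 21 genes of the chromatin set rose, 12 fell and 30 did not pass the test. These 33 called genes were 52.4% of the tested set, against 63.8% called among all 10350 tested genes, so the set was called no more often than the array at large. The higher genes were 33.3% of the set against a background of 29.4%, and the lower genes 19.0% against 34.4%. The median change of the set was 0.07 on the log2 scale and that of all genes -0.04. Changes within the set ranged from -2.15 to 1.61, with a median size of 0.31 irrespective of sign, against 0.42 for all genes. Only 6 genes of the set changed at least 2-fold, which is 9.52% against a background of 17.3%. The groups of mice did not overlap for 32 genes of the set, or 50.8% against 60.1%. When arrays were scaled to a common median in place of quantile normalization, 24 genes of the set were higher and 8 lower, so that 75.0% of its calls were higher against 63.6% in the main analysis. Over all genes that share moved as well, from 46.1% to 51.1%.

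**Figure D1:**
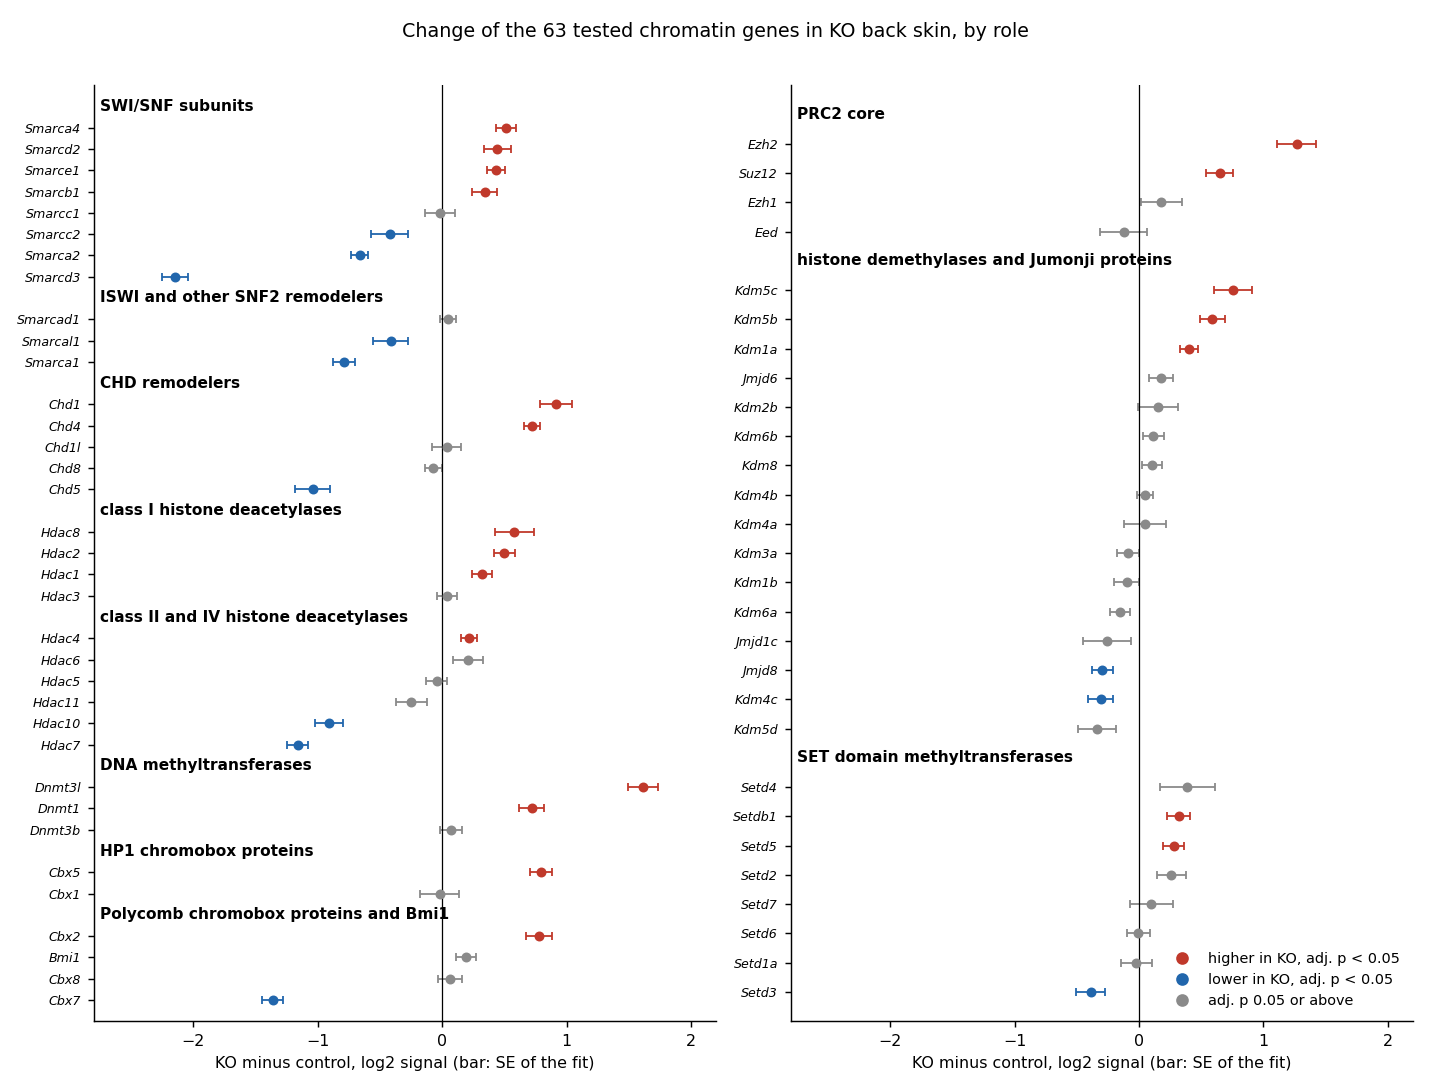
Change in KO relative to control skin (x axis, log2 signal) for each of the 63 tested genes of the chromatin set, grouped by role, with the standard error of the fit (n = 4 mice per group). Red points were called higher (21 genes), blue points lower (12 genes), and grey points did not pass; Smarcd3 at -2.15 and Dnmt3l at 1.61 lie farthest out.

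Within SWI/SNF, the complex built around the ATPase Smarca4 (BRG1) or Smarca2 (BRM), 4 of 8 tested subunits rose and 3 fell. The background for this and the other roles below is 29.4% higher and 34.4% lower among all genes, and most roles hold few genes. The largest fall of the whole set was that of Smarcd3, also called BAF60c, a subunit known for its role in heart and skeletal muscle. Its log2 signal was 9.09, 9.18, 9.55 and 9.29 in controls against 7.26, 7.16, 7.06 and 7.04 in KO skin. The groups were far apart, and Smarcd3 was 4.43-fold lower in KO skin (log2 change -2.15 ± 0.11, adjusted p = 1.59e-07). The 18 skeletal muscle markers had a median log2 change of -1.86. Endothelial, dermal fibroblast and macrophage markers fell as well, with medians of -1.17, -0.99 and -0.75, while hair, proliferation and melanocyte markers rose. The part of these shifts in the fall of Smarcd3 was not tested. Smarcd2, a relative of Smarcd3, rose by 0.44 ± 0.11 (adjusted p = 0.00503), while Smarcd1, the remaining member of this subunit family, was detected on no array.

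The ATPases of SWI/SNF moved in opposite directions. Smarca4 gave 7.60, 7.68, 7.70 and 7.86 in controls against 8.28, 8.15, 8.12 and 8.32 in KO skin, a rise of 0.51 ± 0.08 (adjusted p = 0.000451). Smarca2 gave 12.45, 12.52, 12.42 and 12.33 in controls against 11.79, 11.75, 11.76 and 11.76 in KO skin, a fall of 0.66 ± 0.07 (adjusted p = 1.78e-05). The KO mice were nearly identical to each other for Smarca2, and neither gene had overlapping groups. A second, dimmer probe of Smarca2 changed in the same direction, by -0.89 ± 0.18. Among the shared core subunits, Smarce1 (0.43 ± 0.07) and Smarcb1 (0.34 ± 0.10) rose. Of the scaffold paralogues, Smarcc2 changed by -0.42 ± 0.15 (adjusted p = 0.0305) and Smarcc1 by -0.02 ± 0.12 (adjusted p = 0.901). The call of Smarcc2 was lost without control mouse 1, control mouse 2 or KO mouse 4, where its adjusted p was 0.0778, 0.0584 and 0.0636, and under scaling to a common median (0.131). Without control mice 1 and 3 Smarcb1 had an adjusted p of 0.0730.

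Of the other remodelers with an SNF2 type ATPase, Smarca1, which is the ISWI ATPase SNF2L, was lower. Its signals were 8.23, 8.48, 8.16 and 8.16 in controls against 7.51, 7.50, 7.45 and 7.41 in KO skin. Every KO mouse lay below every control mouse, with a change of -0.79 ± 0.09 (adjusted p = 3.32e-05). Smarcal1, which rejoins separated DNA strands at stalled replication forks, changed by -0.41 ± 0.14 (adjusted p = 0.0278). That call was lost without control mouse 3, KO mouse 1 or KO mouse 2, with adjusted p of 0.0736, 0.0594 and 0.0589. Smarcad1, a remodeler active at replication and repair, changed by 0.04 ± 0.07 and did not pass.

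In the CHD family, most of whose members join a chromodomain to the ATPase, Chd1 and Chd4 rose and Chd5 fell. Chd4 is the ATPase of NuRD, a complex that also holds Hdac1 and Hdac2. Its brightest probe read 10.03, 10.02, 10.08 and 10.11 in controls against 10.76, 10.85, 10.78 and 10.73 in KO skin, and rose by 0.72 ± 0.06 (adjusted p = 7.51e-06). The other 2 tested Chd4 probes rose as well, by 1.13 and 0.53. Chd1, which acts on transcribed chromatin, read 6.66, 7.21, 7.13 and 7.19 in controls against 7.99, 7.81, 8.05 and 7.99 in KO skin. Control mouse 1 was the lowest, the groups did not overlap, and the rise was 0.91 ± 0.13 (adjusted p = 0.000156), with a second probe at 0.92. Chd5, a homologue of Chd4 known mainly from neurons and testis, read 6.84, 6.33, 6.73 and 6.29 in controls against 5.30, 5.47, 5.68 and 5.58 in KO skin. It was 2.06-fold lower (log2 change -1.04 ± 0.14, adjusted p = 0.000138), with KO signals not far above the lowest that were detected (5.09 to 5.21 over the arrays). Chd8 (-0.07 ± 0.07) and Chd1l (0.04 ± 0.11) did not pass, and Chd6 was detected on no array.

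The class I deacetylases, nuclear enzymes that act in corepressor complexes, rose in 3 of 4 cases. Over all genes 29.4% rose, and 4 genes are few to set against that share. Hdac2 read 11.94, 11.90, 11.80 and 12.10 in controls against 12.42, 12.47, 12.34 and 12.50 in KO skin, with no overlap and a rise of 0.50 ± 0.08 (adjusted p = 0.000454). Hdac1, its close paralogue, rose by 0.32 ± 0.08 (adjusted p = 0.00543) and Hdac8 by 0.58 ± 0.16 (adjusted p = 0.00897). Control mouse 3, at 6.63, lay above KO mouse 1, at 6.58, for Hdac8, so its groups overlapped. Hdac3, the enzyme of the NCoR and SMRT corepressors, changed by 0.04 ± 0.08 and did not pass.

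Of the 6 tested class II and IV deacetylases 1 rose, 2 fell and 3 did not pass, where 29.4% of all genes rose and 34.4% fell. Hdac7, a class IIa enzyme known for its role in endothelial cells and developing T cells, read 10.05, 10.09, 10.32 and 10.13 in controls against 9.0, 8.86, 9.02 and 9.05 in KO skin. It was 2.24-fold lower in KO skin (log2 change -1.16 ± 0.08, adjusted p = 1.82e-06). The 11 tested endothelial markers had a median change of -1.17, with 10 of them called lower. Skeletal muscle, dermal fibroblast and macrophage markers also fell, with medians of -1.86, -0.99 and -0.75, while hair, proliferation and melanocyte markers rose. The part of these shifts in the fall of Hdac7 was not tested. Hdac10, which deacetylates polyamines, fell by 0.91 ± 0.11 (adjusted p = 7.77e-05), with 7.37 to 7.87 in control and 6.51 to 6.74 in KO mice. Hdac4, a class IIa enzyme, rose by 0.22 ± 0.07 (adjusted p = 0.0152), from 9.11 to 9.17 in control to 9.32 to 9.47 in KO mice, without overlap. Without control mice 1 and 3 its adjusted p was 0.0534. Hdac5 (-0.05 ± 0.08), Hdac6 (0.21 ± 0.12) and Hdac11 (-0.25 ± 0.13) did not pass at their brightest probe. Hdac9 was detected on at most 3 arrays and was not tested.

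The DNA methyltransferases held the largest rise of the set. Dnmt3l, a relative of the de novo methyltransferases that has no catalytic activity of its own and is known from germ cells, read 6.64, 6.25, 6.68 and 6.88 in controls against 8.28, 8.18, 8.28 and 8.17 in KO skin. It was 3.06-fold higher (log2 change 1.61 ± 0.12, adjusted p = 2.83e-06), and its other probe rose by 2.04 ± 0.08. Dnmt1, which copies methylation onto new DNA strands after replication, read 8.97, 9.09, 8.88 and 9.08 in controls against 9.57, 9.87, 9.55 and 9.89 in KO skin, a rise of 0.72 ± 0.10 (adjusted p = 0.000194). Both genes separated the groups without overlap. The proliferation markers given above rose too, as did the hair and melanocyte markers, and the part of these shifts in the rise of Dnmt1 was not tested. Dnmt3b, a de novo enzyme, changed by 0.07 ± 0.09 (adjusted p = 0.527), and neither of the 2 probes of Dnmt3a, the other de novo enzyme, was detected on any array.

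**Figure D2:**
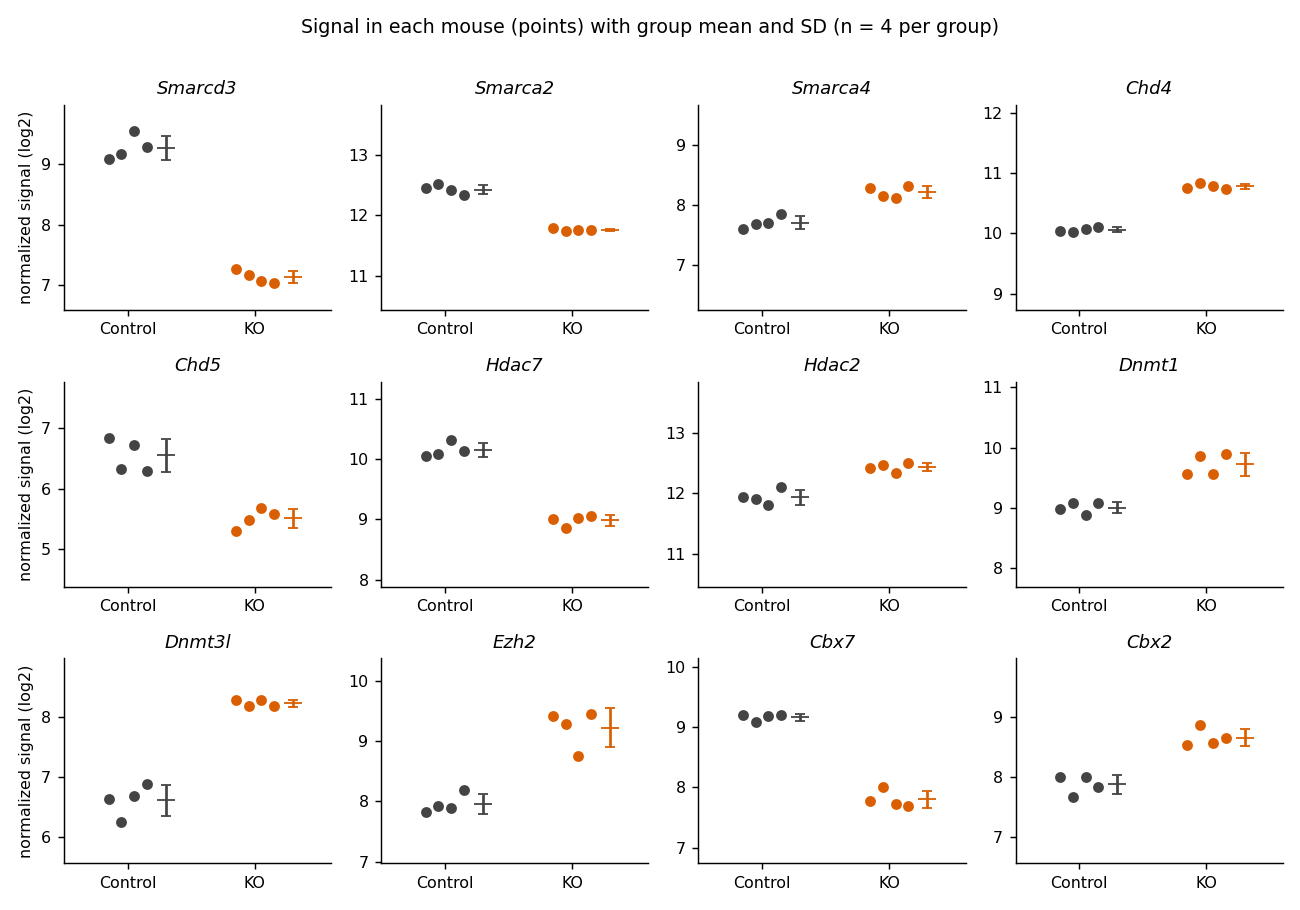
Normalized signal (y axis, log2) in each of 4 control and 4 KO mice for 12 genes of the chromatin set, with the group mean and standard deviation beside the points; every panel spans the same number of log2 units, at a different position. The 12 genes were picked among the called ones, so that the control and KO points overlap in no panel is not a result about the set. Over the tested set the groups did not overlap for 50.8% of genes, against 60.1% of all genes. The widest gap shown is that of Smarcd3.

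Within PRC2, the catalytic subunit Ezh2 and the scaffold Suz12 rose. Ezh2 read 7.82, 7.93, 7.89 and 8.19 in controls against 9.41, 9.28, 8.75 and 9.46 in KO skin. KO mouse 3 was the lowest of the KO mice but still above all control mice, and Ezh2 was 2.41-fold higher (log2 change 1.27 ± 0.16, adjusted p = 7.52e-05). A dim second Ezh2 probe, at 5.12 to 5.76 over all mice, gave 0.18 ± 0.14 (adjusted p = 0.278) and was not called, and the remaining one was detected on no array. Suz12 read 11.35, 11.16, 11.45 and 11.59 in controls against 12.17, 11.98, 11.87 and 12.11 in KO skin, a rise of 0.65 ± 0.11 (adjusted p = 0.000500). Neither Eed, the subunit that reads the mark of PRC2, nor Ezh1, the paralogue of Ezh2 typical of resting cells, passed. Eed changed by -0.12 ± 0.19, with control mice from 8.05 to 8.88, and Ezh1 by 0.18 ± 0.16. Ezh1 was dim, at 5.42 to 6.19 over all mice, not far above the lowest signals detected (5.09 to 5.21 over the arrays).

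The chromobox subunits of PRC1 moved apart. Cbx7, known from stem cells and resting adult tissue, read 9.19, 9.08, 9.18 and 9.19 in controls against 7.78, 8.01, 7.73 and 7.69 in KO skin. It was 2.57-fold lower in KO skin (log2 change -1.36 ± 0.09, adjusted p = 7.56e-07). Cbx2 read 7.99, 7.68, 8.01 and 7.83 in controls against 8.54, 8.86, 8.57 and 8.65 in KO skin, a rise of 0.78 ± 0.10 (adjusted p = 0.000119). Cbx8 (0.06 ± 0.10) and the RING finger partner Bmi1 (0.19 ± 0.08, adjusted p = 0.0639) did not pass, and Cbx6 was detected on no array. Of the HP1 proteins, which bind methylated histone H3 in heterochromatin, Cbx5 (HP1 alpha) rose by 0.79 ± 0.09 (adjusted p = 3.36e-05), from 7.30 to 7.62 in control to 8.15 to 8.35 in KO mice. Cbx1 (HP1 beta) changed by -0.02 ± 0.16, and Cbx3 (HP1 gamma) was detected on 3 arrays and not tested.

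The largest group, the histone demethylases and Jumonji proteins, had the smallest changes, with a median size of 0.165. Of its 16 tested genes 3 rose, 2 fell and 11 did not pass, and its median signed change was 0.05. Kdm1a (LSD1), which removes methyl groups from histone H3 and belongs to corepressor complexes, read 10.82, 11.07, 10.88 and 10.95 in controls against 11.30, 11.34, 11.33 and 11.36 in KO skin, a rise of 0.40 ± 0.07 (adjusted p = 0.000938). Kdm5b, a demethylase of histone H3 at promoters, read 6.90, 6.91, 7.04 and 7.12 in controls against 7.38, 7.75, 7.48 and 7.70 in KO skin, and rose by 0.59 ± 0.10 (adjusted p = 0.000658). Kdm5c, of the same subfamily, rose by 0.76 ± 0.16 (adjusted p = 0.00203) but was detected on only 2 of 4 control arrays, and its second tested probe did not pass (0.36 ± 0.22). The falls were small, with Jmjd8 at -0.29 ± 0.09 (adjusted p = 0.0146) and Kdm4c at -0.31 ± 0.10 (adjusted p = 0.0231). Both lost their calls when arrays were scaled to a common median, with Jmjd8 at -0.18 (adjusted p = 0.181) and Kdm4c at -0.23 (adjusted p = 0.0959). The call of Kdm4c was also lost without control mouse 1, control mouse 3 or KO mouse 1, with adjusted p of 0.0574, 0.0610 and 0.0579. The demethylases that oppose PRC2 did not pass, with Kdm6a at -0.15 ± 0.08 and Kdm6b at 0.12 ± 0.08. At their brightest probes the 11 genes without a call ranged from -0.34 (Kdm5d) to 0.18 (Jmjd6). Other probes of Kdm1b and Kdm3a, which are among them, were called and are described below. Jmjd4 and Kdm4d were detected on no array, nor was Ezhip, an inhibitor of PRC2 that the name rule takes in.

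The SET domain group also moved little, with a range from -0.39 to 0.39 over 8 tested genes. Setdb1, which methylates histone H3 in heterochromatin and at retroelements, rose by 0.32 ± 0.09 (adjusted p = 0.0135), and Setd5 by 0.28 ± 0.08 (adjusted p = 0.0147). Setd3, a methyltransferase of actin, fell by 0.39 ± 0.12 (adjusted p = 0.0165), with 8.78 to 9.28 in control and 8.51 to 8.73 in KO mice, and did not pass under scaling to a common median (adjusted p = 0.0921). Setdb1 and Setd5 did not pass without control mice 1 and 3 (adjusted p = 0.0793 and 0.0511). Setd2 (0.26 ± 0.12, adjusted p = 0.0783), Setd4 (0.39 ± 0.22), Setd7 (0.10 ± 0.17), Setd1a (-0.02 ± 0.12) and Setd6 (-0.01 ± 0.09) did not pass. In Setd4 KO mouse 2, at 6.84, stood above the other KO mice at 5.84 to 5.99.

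Probes of the same gene did not always give the same result. Of 17 genes with several tested probes, 10 had the same call on all of them and 6 had called probes beside others that did not pass (Ezh2, Hdac5, Hdac6, Kdm1b, Kdm5c and Setd4). Hdac6, a cytoplasmic deacetylase of tubulin, changed by 0.21 at its brightest probe, which did not pass, and fell by 0.53 ± 0.20 at the dimmer one (adjusted p = 0.0452). Kdm1b changed by -0.10 ± 0.10 at its brightest probe, which did not pass. A dimmer Kdm1b probe rose by 0.69 ± 0.08 (limma adjusted p = 3.29e-05) without overlap, and the remaining tested ones did not pass. Kdm3a, a demethylase known from spermatogenesis, had called probes in both directions, at -0.24 ± 0.08 (adjusted p = 0.0238) and 0.25 ± 0.10 (adjusted p = 0.0487), and a brightest probe at -0.09 ± 0.09 that did not pass. Where in their transcripts these probes lie was not analysed here.

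Whether related genes changed by different amounts was tested in each mouse, as the log2 difference of the paralogues, with a two-sided exact permutation test. Of 8 pairs listed, 5 had both genes tested, and with 4 mice against 4 the smallest p is 0.0286. The changes of Cbx2 and Cbx7 differed most, by 2.14 ± 0.07 on the log2 scale, a 4.41-fold shift of their ratio (exact permutation p = 0.0286, adjusted over 5 pairs 0.0476). The changes of Smarca4 and Smarca2 differed by 1.18 ± 0.10 and those of Ezh2 and Ezh1 by 1.09 ± 0.31, with the same exact p of 0.0286 and adjusted p of 0.0476. With the authors' normalized values the latter difference was 1.07 and did not pass (exact permutation p = 0.0857). Ezh1 was dim, where the offset used pulls changes toward 0, and the second tested Ezh2 probe changed by only 0.18. All 4 KO mice lay above all 4 control mice in these 3 pairs, KO mouse 3 by the least in the pair of Ezh2 and Ezh1. Cbx2 and Cbx7 had each separated the groups alone, in opposite directions, as had Smarca4 and Smarca2. For these pairs the smallest p therefore follows from the changes of the single genes and adds no separate support. The difference of Smarcc1 and Smarcc2, at 0.40 ± 0.12, did not pass (exact permutation p = 0.0571, adjusted 0.0714). Nor did that of Hdac1 and Hdac2, at -0.18 ± 0.11 (exact permutation p = 0.0857). Dnmt3b could not be set against Dnmt3a, which was not detected, and Smarca5 and Chd3 were not analysed here.

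**Figure D3:**
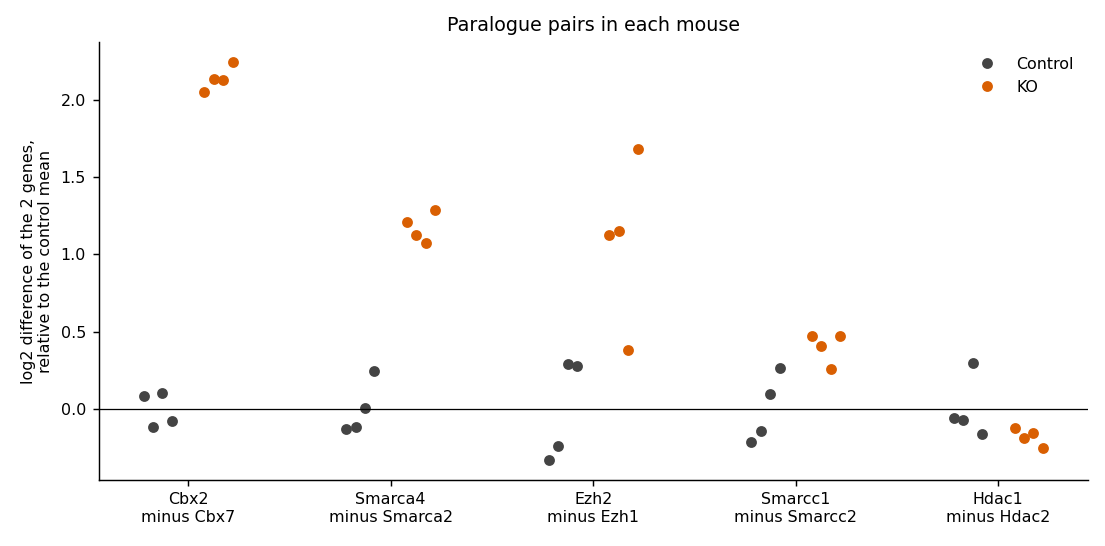
Log2 difference between paralogues in each mouse (y axis), relative to the mean of the control mice, for the 5 pairs with both genes tested; each point is a mouse. The KO mice lie above all control mice for Cbx2 minus Cbx7, Smarca4 minus Smarca2 and Ezh2 minus Ezh1, and the groups overlap in Smarcc1 minus Smarcc2 and in Hdac1 minus Hdac2.

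Promoter sequences are shown for called genes at the ends of the range and for called genes that hold a match to the E2F letters. E2F factors are known to drive genes of DNA replication. The letters were chosen with earlier results of these data known, and whether E2F factors act on these genes here was not tested. RefSeq windows (GRCm38.p6), from 250 bases before to 50 after a start site, matched 64 genes of the set with 87 promoters. The letters TTTCGCGC, TTTGGCGC or TTTCCCGC, on either strand, occurred in 606 of 32851 promoters on the whole table (1.84%) and in 5 of 87 of the set (5.75%). The whole table covers 27025 genes, on the array or not, so it is not a background of tested genes. The matches were in Ezh2, Dnmt1 and Suz12, which rose, and in Cbx3 and Smarcd1, which were not tested. Of promoters of higher genes 3 of 23 had a match, against 0 of 17 of lower genes and 0 of 34 of genes that did not pass. A match is a description and not a binding site, and promoters of 1 gene share sequence. The matches are printed in capitals within their surroundings, 5′ to 3′ on the strand of the gene.
Ezh2, chr6:47595008-47595057, minus strand: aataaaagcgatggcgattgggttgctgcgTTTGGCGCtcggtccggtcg
Dnmt1, chr9:20952823-20952872, minus strand: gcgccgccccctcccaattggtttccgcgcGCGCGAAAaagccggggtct
Suz12, chr11:79992857-79992906, plus strand: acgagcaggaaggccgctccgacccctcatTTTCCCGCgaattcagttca

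The match lay 4 bases into the Ezh2 transcript, and 219 bases before the start site of Suz12 and that of the Dnmt1 window that holds it. RefSeq also lists Dnmt1 start sites farther upstream, so this match is not upstream of all of them. The match of Dnmt1 shown reads on the opposite strand of the gene, and the same window holds another at base 34 of the transcript. CpG sites, the substrate of the DNA methyltransferases, had a median of 24 per promoter window in the set against 7 over the whole table. That table is not limited to tested genes, and whether the difference is particular to the set was not tested. Among the 87 windows of the set the number ranged from 0 to 49, and the genes with the largest fall and the largest rise held 40 (Smarcd3) and 6 (Dnmt3l, at its first start site). The last 100 bases before that start site are printed for both, with CpG in capitals, 16 in Smarcd3 and 3 in Dnmt3l. Methylation was not measured in these samples.
Smarcd3, chr5:24602003-24602102, minus strand: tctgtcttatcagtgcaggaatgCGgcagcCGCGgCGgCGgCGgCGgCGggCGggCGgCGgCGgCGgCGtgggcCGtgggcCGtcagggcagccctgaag
Dnmt3l, chr10:78042187-78042286, plus strand: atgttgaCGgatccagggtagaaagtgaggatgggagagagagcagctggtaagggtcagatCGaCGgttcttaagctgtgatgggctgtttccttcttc

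Partner genes that work with these enzymes were counted from lists of complex members that the name rule does not reach. Of 13 tested partners of PRC1 and PRC2, 5 rose, 2 fell and 6 did not pass. Pcgf6, a RING finger subunit of a variant PRC1, rose by 1.24 ± 0.08 and Aebp2, an accessory subunit of PRC2, by 1.07 ± 0.07, while the PRC1 ubiquitin ligases Ring1 (-0.13 ± 0.08) and Rnf2 (0.13 ± 0.12) did not pass. Of 10 tested partners in NuRD and ISWI complexes, 4 rose and 1 fell. Baz1a, the large partner subunit of the ISWI complex ACF, read 7.21, 6.94, 6.99 and 7.14 in controls against 8.90, 8.83, 8.85 and 8.90 in KO skin, a rise of 1.80 ± 0.08 (adjusted p = 7.08e-08). The histone binding protein Rbbp7 rose by 0.97 ± 0.09, and Chrac1, a histone fold subunit, fell by 0.54 ± 0.07. Of 8 tested SWI/SNF partners 4 rose and 2 fell, with Actl6a (BAF53a), known from epidermal progenitors, at 0.65 ± 0.15 and Brd9 at -0.60 ± 0.07.

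Of 6 tested readers and erasers of DNA methylation, 4 rose and 1 fell. Uhrf1, which brings Dnmt1 to newly replicated DNA, read 9.41, 9.21, 9.37 and 9.04 in controls against 11.08, 11.10, 11.25 and 11.40 in KO skin, 1.95 ± 0.11 higher (adjusted p = 3.46e-07). Its paralogue Uhrf2 fell by 0.36 ± 0.06 (adjusted p = 0.000776). Of 8 histone acetyltransferases 5 rose and 2 fell, among them Hat1, which acetylates newly made histone H4 and rose by 0.79 ± 0.07, and Kat6b, which fell by 0.57 ± 0.10. Of 8 other histone methyltransferases 6 rose and 0 fell, led by Nsd1 (0.84 ± 0.14) and Dot1l (0.72 ± 0.18). The share of higher calls in all 6 lists was at or above 38.5%, against 29.4% of all genes, but the lists hold 6 to 13 tested genes each.

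**Figure D4:**
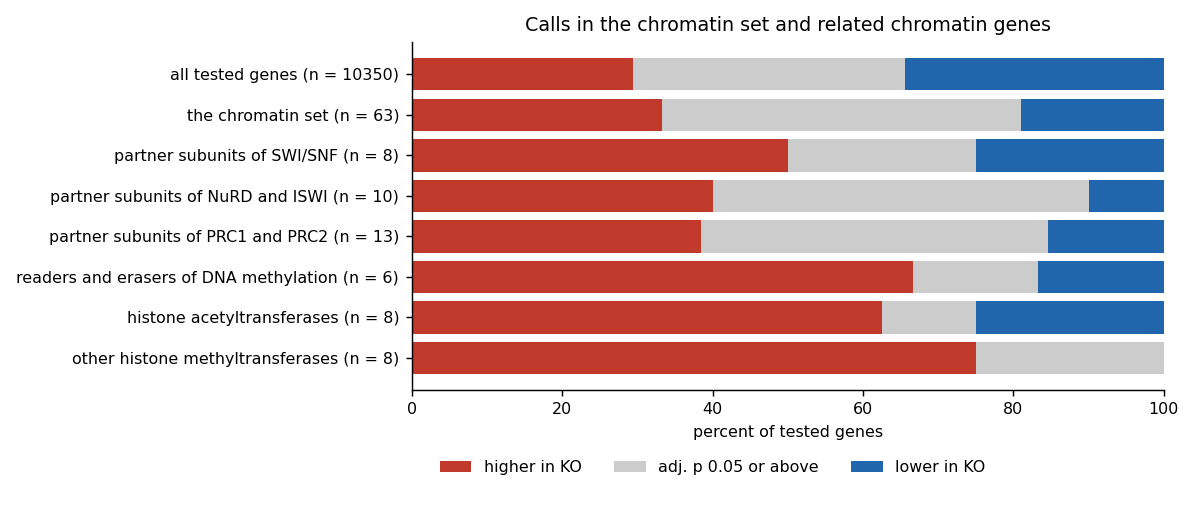
Percent of tested genes (x axis) that were higher in KO skin (red), did not pass (grey) or were lower (blue), for all tested genes, the chromatin set and 6 lists of related chromatin genes, with the number of tested genes in parentheses. The chromatin set was 33.3% higher and 19.0% lower, against 29.4% and 34.4% of all genes.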

How the data were processed

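Total RNA of whole back skin from 4 control and 4 KO mice was hybridized to 1 bead array per mouse. For each probe and array the authors deposited a raw bead intensity without background subtraction, and a second intensity normalized by them by a method not given in the sources used here; the submitters' processing notes name GenomeStudio 2011.1. A detection p-value accompanies each of them, deposited per the file headers, and compares the probe with negative control beads. Raw intensities were background corrected, quantile normalized and log2 transformed (limma 3.58.1, function neqc, R 4.3.3), with an offset of 16 that pulls changes of dim probes toward 0. Probes with a detection p below 0.05 on at least 4 of 8 arrays were tested with lmFit and eBayes, with Benjamini-Hochberg adjustment over all 15120 of them. Paralogue differences were tested by permutation, exact and two-sided, over the 70 possible assignments of mice. The number of arrays limits the precision.

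Symbols came from the platform annotation; 23978 probes had a symbol and 1719 had none, and the 109 probes of the set matched RefSeq genes under the same symbols. Named genes were Med1, up to 4 genes per role with the smallest adjusted p and both genes of each pair; others were named after their values were seen. The genes, roles, lists and tests were chosen with earlier results of these data known. The fit was tested on simulated data. Alternatives changed the background correction, normalization, detection filter, variance model, replicate block, test and mice.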

Additional observations from a re-analysis of the deposited data

Results flagged for a closer look

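In 8 of the 126 groups checked, 1 mouse lay far from the other 3 of its genotype (the gap to the nearest of them, relative to the range of the group, passed Dixon's 95% critical value). Chance flags about 1 in 20 groups. Control mouse 2 was the one in 5 cases, high in Hdac6 (6.90 against 6.64 to 6.68) and Kdm3a (10.54 against 10.32 to 10.34), and low in Cbx7 (9.08 against 9.18 to 9.19), Cbx8 (7.02 against 7.33 to 7.38) and Hdac11 (7.14 against 7.56 to 7.59). Control mouse 1 was low in Chd1 (6.66 against 7.13 to 7.21), and control mouse 3 was high in Smarcal1 (8.76 against 8.47 to 8.49). KO mouse 2 was high in Setd4 (6.84 against 5.84 to 5.99). Without control mouse 2, Hdac11 passed the test with a log2 change of -0.35 (adjusted p = 0.0172). The calls of Cbx7 and Chd1 held without each of the 8 mice in turn.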

How the results depend on the processing

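Of 30 named genes of the set that were called, 23 kept their call in every one of the 18 alternatives in which they were tested. Leaving out each mouse in turn gave 21 to 23 higher and 10 to 13 lower genes, and a median change of 0.06 to 0.09. Scaling to a common median moved the median of all tested probes to 0.03, and Jmjd8, Kdm4c, Setd3 and Smarcc2 lost their calls. Control mice 1 and 3 had more hair keratin signal than the other 2, and without both, 17 genes were higher and 9 lower, and Hdac4, Kdm4c, Setd5, Setdb1, Smarcal1, Smarcb1 and Smarcc2 lost their calls in the smaller sample. Kdm5c, one of the 23, was not tested when detection on all 8 arrays was asked. An unpaired t-test in place of limma passed 34 genes of the set at an unadjusted p below 0.05 and 31 after adjustment.

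With the authors' normalized values the difference of Ezh2 and Ezh1 was 1.07 (exact permutation p = 0.0857). Without background correction those of Hdac1 and Hdac2 (-0.21) and of Smarcc1 and Smarcc2 (0.33) had an exact permutation p of 0.0286. The cause was not tested. Genes that were not called and turned sign were Chd8 (0.013) and Smarcc1 (0.057) under median scaling, and Cbx1 (0.21), Eed (0.15), Smarcad1 (-0.0033) and Smarcc1 (0.0089) without control mice 1 and 3. Leaving out 1 mouse at a time also turned uncalled genes, with ranges of -0.142 to 0.089 for Cbx1, -0.024 to 0.097 for Cbx8, -0.266 to 0.012 for Eed, -0.0095 to 0.092 for Hdac3 and -0.091 to 0.083 for Smarcc1.

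Same-numbered mice deviated from their group means with correlations from -0.107 to 0.0587, and differently numbered mice with -0.0863 to 0.0875. The numbers thus gave no sign of a pairing, but these correlations cannot show whether mice were paired by litter or handling. The study names Cre-negative littermates as controls, and which of these mice shared a litter is not known here. With the replicate number as a block 22 genes of the set were higher and 11 lower, Kdm4c lost its call and Setd4 gained one.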

Other observations

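The promoter windows were also searched, on both strands, for the letters of other factors. The NRF1 letters GCATGCGC occurred in 4 of 23 promoters of higher genes, 0 of 17 of lower genes and 1 of 34 of genes that did not pass, against 2.71% of the whole table. The CCAAT box (CCAAT) was in 12 of 23, 6 of 17 and 14 of 34, against 37.4%, and the CHR letters (TTTGAA) in 3 of 23, 2 of 17 and 7 of 34, against 17.9%. The E-box (CACGTG) was in 9 of 87 promoters of the set (10.3% against 7.15%), the YY1 letters AAGATGGC in 2 and the ETS letters CCGGAAGT in 1. These are counts over few promoters, several of which belong to the same gene, and the whole table is not limited to tested genes.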
